A study of Rattus norvegicus with 3 samples.

Results

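Secreted muscle and stress factors are 8 genes whose proteins leave the muscle fibre or its neighbours and act on other cells: Ostn, Fgf21, Gdf15, Il6, Il15, Fndc5, Metrnl and Dkk1. They were chosen by name from 15168 named genes on a rat expression array, and the set was selected on measured values, for the large difference of Ostn between muscles. Its Ostn values are therefore a description, and no count over the 8 genes supports anything. Of the 8 genes, 7 had a matched probe, and 4 of these (Ostn, Il15, Metrnl and Gdf15) lay well above background on 1 array or more.

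Messenger RNA was measured in total RNA of skeletal muscle of male Wistar Honnover rats (spelled as in the labels), 12 weeks old per the labels. The first array held soleus 28 days after surgery that cut the left sciatic nerve, the second held normal plantaris and the third held normal soleus, both normal muscles being those of untreated rats. Each group had 1 array with 1 colour (Cy3), and how many animals went into an array is not stated in those labels. No difference below has a replicate check, so each is given as a size, with no p-value. The denervated array lay on another slide and scan than both normal arrays, so denervation and slide cannot be told apart.

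Muscle releases proteins in response to contraction, feeding and stress, often called myokines. Ostn encodes musclin (osteocrin), which resembles natriuretic peptides and binds their clearance receptor, and Il6 and Il15 encode cytokines that muscle makes. Fgf21 and Gdf15 encode hormones that cells under mitochondrial or amino acid stress are known to release, in mice and humans, downstream of the transcription factor Atf4.

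Signals are scanner intensities after background subtraction. For folds they were put on a log2 scale and centred on the 75th percentile signal of the array, which was 1217 in denervated soleus, 744 in normal plantaris and 903 in normal soleus. Centring therefore moved every log2 fold by -0.43 for denervated over normal soleus and by 0.28 for plantaris over soleus. The error after a fold is the scanner software's signal error for the spots, and it holds no variation between animals. Where a probe was not well above background on 1 array, the fold is a bound against its own signal there or the lowest reliable signal of that array, whichever was larger. A gene counted as apart at 2-fold or more, which is 1 unit on the log2 scale.

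The labels were set against genes known to mark these states. Chrng, the fetal acetylcholine receptor subunit, had a log2 fold of 4.72 ± 0.20 in denervated over normal soleus, and Myog, a myogenic factor raised by loss of the nerve, had 1.86 ± 0.20. Myh4 and Actn3, of fast fibres, had log2 folds of 7.22 and 9.59 in normal plantaris over normal soleus. Myh7, the slow myosin, had -2.62 ± 0.20 there. In denervated over normal soleus Myh4, Actn3 and Myh7 had 1.30, 5.15 and -1.50. All 10 muscle fibre markers lay well above background on every array.

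Ostn was high in plantaris, low in normal soleus and not well above background in denervated soleus. Its 2 spots read 7.99 and 5.94 in denervated soleus, 2652 and 2513 in normal plantaris, and 54.3 and 42.6 in normal soleus. These are repeat spots on 1 array per group, so their closeness says nothing of variation between animals. Plantaris was the only array of the 3 in which Ostn exceeded the 75th percentile, at a centred log2 level of 1.80. Ostn in denervated soleus was at least 6.08-fold lower than in normal soleus, a log2 bound of -2.60 with a scanner error of 1.15. The bound rests on the faintest probe well above background on the denervated array, that of Wnt16. From Ostn's own dim signals the log2 difference would be -3.23, and the 4 pairs of spots gave -3.62 to -2.85.

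In normal plantaris over normal soleus the log2 fold of Ostn was 6.02 ± 0.26, which is 65.1-fold. The 4 spot pairs gave 5.81 to 6.24. It was the fifth highest fold, rank 5 of the 11015 genes compared. Denervated soleus was at least 396-fold below plantaris, by a bound that rests on the same faintest probe. In bulk muscle, fewer cells that make a transcript and less of it per cell cannot be told apart. The summed level of the 10 muscle fibre markers, as multiples of the 75th percentile, was 1531 in denervated soleus, 3501 in normal plantaris and 2709 in normal soleus, and its part in the Ostn levels was not tested.

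**Figure D1:**
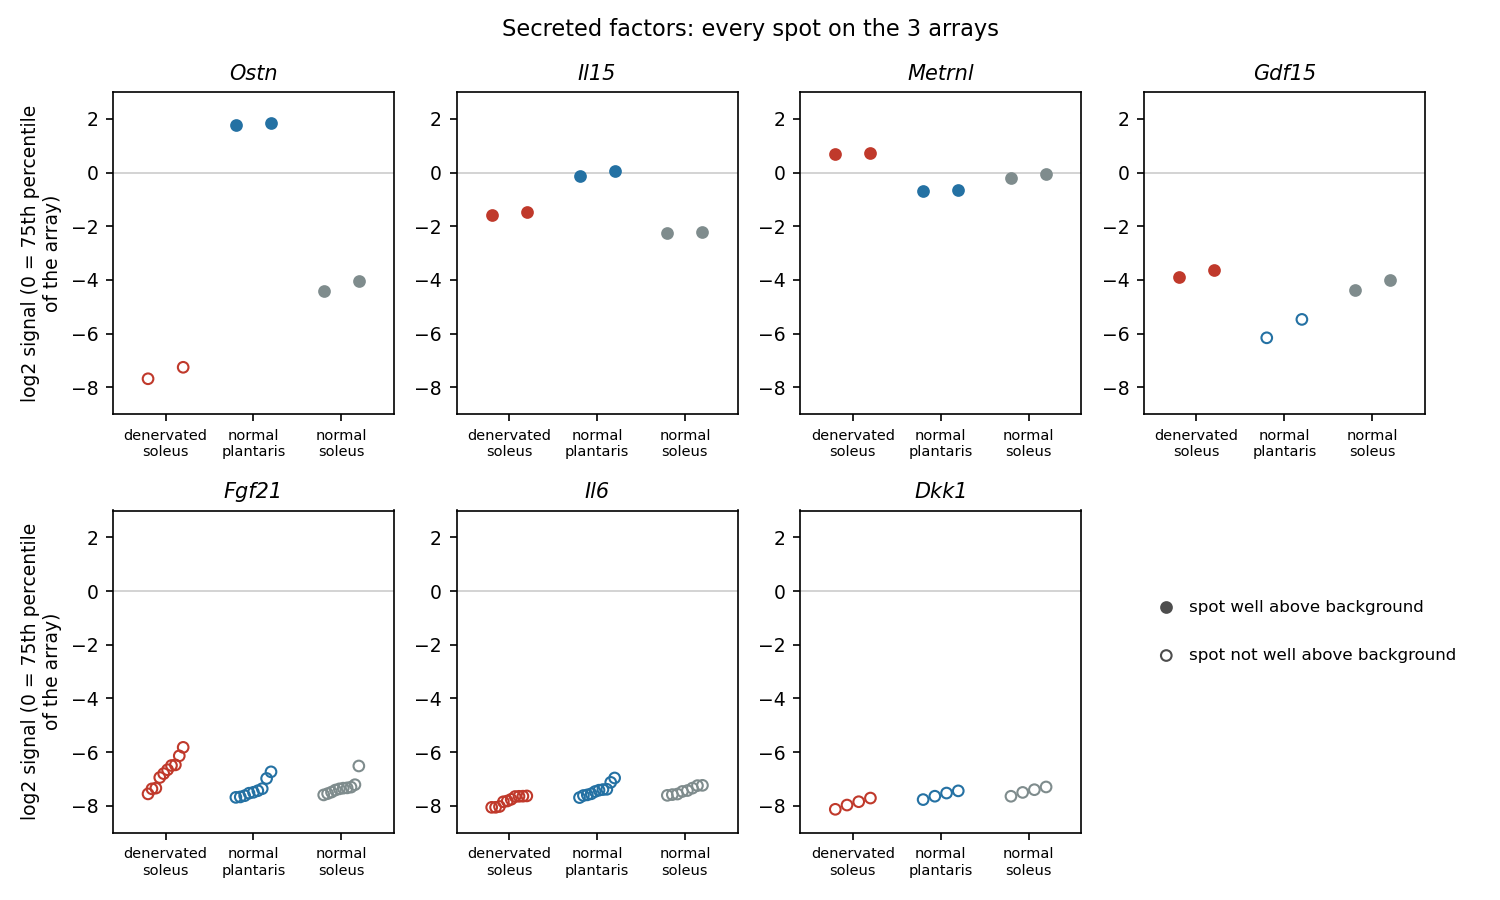
Log2 signal of every spot, with outlier spots left out, for the 7 genes with a probe, where 0 is the 75th percentile of the array. Red is denervated soleus, blue normal plantaris and grey normal soleus, filled points are well above background and open points are not. Ostn spans the arrays most widely, and all spots of Fgf21, Il6 and Dkk1 are open. Heights compare arrays within a panel, not genes.

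The 5 genes whose centred log2 levels lay nearest to those of Ostn over the 3 arrays were Slc16a3, Aqp4, Fbp2, Lgi3 and Cpne5, out of 10053 candidates. Likeness was the root mean square difference after each gene's own mean was removed, and with 3 points it is a description. The Ostn level used for denervated soleus was its own dim signal, which was not well above background, so the distances and their order hold for that reading only. It was 1.099 for Slc16a3, the lactate transporter of glycolytic muscle, and 1.15 for Aqp4, the water channel of fast fibre membranes. It was 1.33 for Fbp2, the muscle fructose bisphosphatase, 1.49 for Lgi3, a secreted leucine-rich repeat protein, and 1.66 for Cpne5, a calcium-dependent lipid-binding protein.

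Slc16a3 spots read 460.9 and 469.5 in denervated soleus, 57141 and 54867 in normal plantaris, and 6690 and 6582 in normal soleus. Its log2 folds were -4.27 ± 0.20 in denervated over normal soleus and 3.36 ± 0.20 in plantaris over soleus. Aqp4 had -3.40 ± 0.25 and 3.51 ± 0.20 in the same order of comparisons. All 5 genes were highest in plantaris and lowest in denervated soleus, as the choice by likeness requires.

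**Figure D2:**
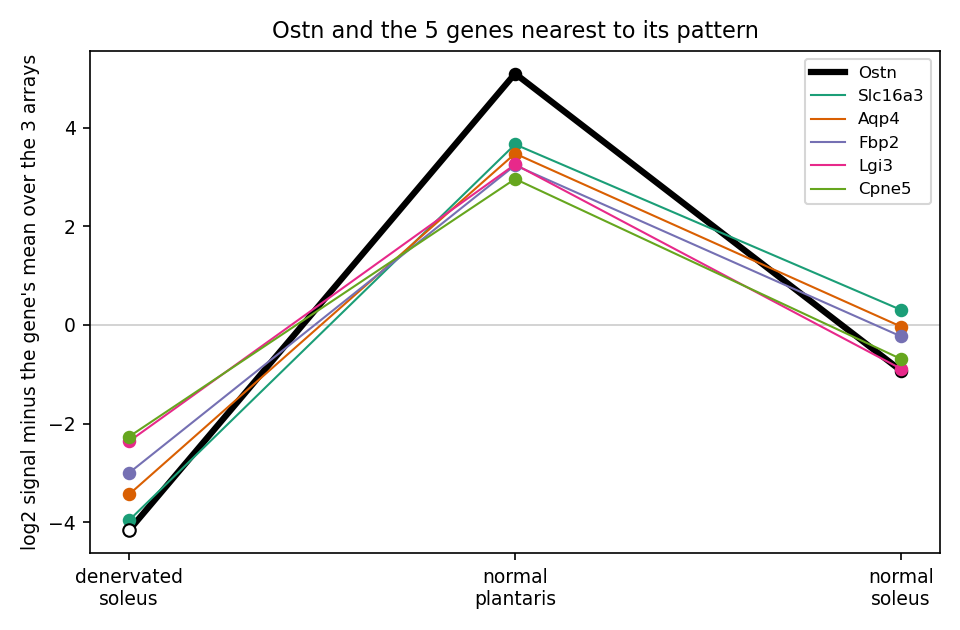
Log2 signal of Ostn (black) and the 5 genes nearest to its pattern, each minus its own mean over the 3 arrays, with denervated soleus, normal plantaris and normal soleus along the axis. The open point marks Ostn not well above background in denervated soleus. All 6 lines peak in plantaris.

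Il15, a cytokine related to interleukin 2 that supports natural killer and memory T cells and is made by muscle, was well above background on all 3 arrays. Its spots read 445 and 411 in denervated soleus, 774 and 685 in normal plantaris, and 193 and 189 in normal soleus. Plantaris was highest and normal soleus lowest. The log2 fold was 0.73 ± 0.21 in denervated over normal soleus, which is 1.66-fold and under the 2-fold line, with spot pairs of 0.66 to 0.81. The ratio of its uncentred signals was 2.24, past 2-fold, so this reading depends on the centring. It was 2.21 ± 0.21 in plantaris over soleus, which is 4.63-fold.

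Metrnl encodes meteorin-like, a secreted protein known in mice to come from exercised muscle, fat and macrophages. Its spots read 1955 and 2017 in denervated soleus, 468 and 471 in normal plantaris, and 791 and 863 in normal soleus. Denervated soleus was highest and plantaris lowest. The ratio of uncentred signals was 2.40 in denervated over normal soleus, and after centring the fold was 1.78, a log2 fold of 0.83 ± 0.20. Metrnl had a log2 fold of -0.54 ± 0.20 in plantaris over soleus.

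Marker genes of fat cells and macrophages were read beside Metrnl. The summed level of the 7 fat cell markers with a probe, as multiples of the 75th percentile, was 76.0 in denervated soleus, 13.8 in normal plantaris and 23.5 in normal soleus. Of 6 measured in denervated over normal soleus, 4 were at least 2-fold higher (Adipoq, Cidec, Cfd and Retn), where 8.73% of all genes were. Fabp4 had a log2 fold of 0.51 and Cidea 0.04, while Lep alone was not well above background on any array. In plantaris over soleus only Cidea was 2-fold apart, at a log2 fold of -3.32, and the highest fold of these markers was 0.33. The sum of 10 macrophage markers was 54.6 in denervated soleus, 35.3 in normal plantaris and 51.7 in normal soleus, with 0 of 10 at 2-fold in either comparison. Their part in the Metrnl levels was not tested.

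Gdf15, a distant member of the transforming growth factor family that acts on the hindbrain, was dim. Its spots read 82.4 and 99.4 in denervated soleus, 16.8 and 10.5 in normal plantaris, and 44.1 and 55.9 in normal soleus. Neither plantaris spot was well above background, although both were positive and significant against it by the scanner's test. The log2 fold was 0.44 ± 0.27 in denervated over normal soleus, with spot pairs of 0.13 to 0.74. By its own dim plantaris signal, Gdf15 was 3.08-fold lower there than in normal soleus, a log2 fold of -1.63 ± 0.52. The spot pairs gave -2.14 to -1.11, so this is not a firm limit.

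Fgf21, Il6 and Dkk1 were not well above background on any array, so no fold is given. The 10 Fgf21 spots read 6.48 at the lowest, 11.5 at the median and 21.5 at the highest in denervated soleus. In normal plantaris the 9 spots used read 3.62, 4.13 and 7.0, and in normal soleus the 10 spots read 4.69, 5.53 and 9.89. The ranges overlapped. The scanner marked 10 of 10 Fgf21 spots as positive and significant in denervated soleus, against 3 of the 9 used in plantaris and 1 of 10 in normal soleus. The same mark fell on 47.9% of all spots not well above background in denervated soleus, 49.5% in normal plantaris and 44.0% in normal soleus.

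Il6, the cytokine that contracting muscle releases, had 10 spots with medians of 5.52 in denervated soleus, 4.29 in normal plantaris and 5.18 in normal soleus, where 8 spots were used, and overlapping ranges. Dkk1, which blocks Wnt signalling by binding Lrp5 and Lrp6, had 2 probes. Their spots read 4.36 to 5.82 in denervated soleus, 3.42 to 4.28 in normal plantaris and 4.53 to 5.75 in normal soleus, and 0 of them were positive and significant. Signals this dim do not show whether the genes were transcribed. Fndc5, which encodes the precursor of irisin, had no matched probe.

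In denervated over normal soleus, 0 of the 4 measured genes were at least 2-fold higher, where 8.73% of the 11318 genes compared were, and 1 (Ostn) was at least 2-fold lower, where 13.4% were. In plantaris over soleus 2 (Ostn and Il15) were higher, where 5.71% of 11015 genes were, and 1 (Gdf15) was lower, where 6.11% were. The genes were chosen on these arrays, so nothing is read from these shares. Ostn and Gdf15 also entered 1 comparison only through the array on which they were brighter. Both comparisons use the same normal soleus array. The median log2 fold over all genes was 0.02 in each.

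**Figure D3:**
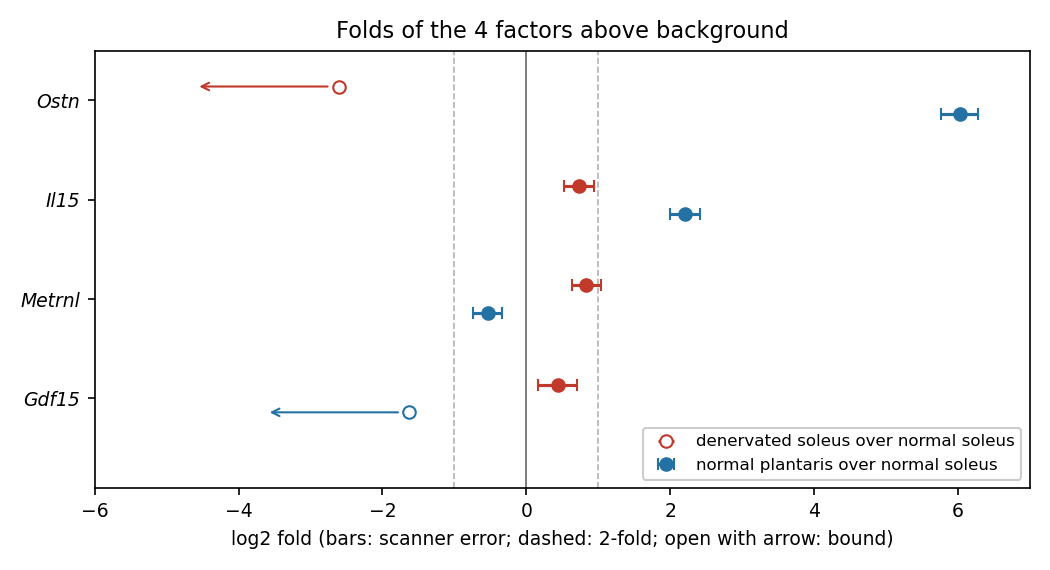
Log2 folds of the 4 measured genes in denervated over normal soleus (red) and normal plantaris over normal soleus (blue). Bars are the scanner error and dashed lines mark 2-fold. Open points with arrows are bounds, for Ostn at -2.60 and for Gdf15 at -1.63, which rests on its own dim signal. Ostn at 6.02 and Il15 at 2.21 in plantaris lie above the 2-fold line.

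For the sequence context, promoter windows of 250 bases before the annotated start were taken from RefSeq (GRCr8) for 7 of the 8 genes. Both strands were searched for the E-box CANNTG, bound by myogenic factors such as Myog, for TGATGNAA, a core bound by Atf4, and for the FoxO site TGTTTAC. An E-box stood in 65.5% of 33465 promoter windows of that length, the Atf4 core in 3.40% and the FoxO site in 3.22%. A match is a description and not a shown binding site. The windows of the 3 measured genes that have one are printed because their levels differed between muscles, and that of Fgf21 in part because it holds an Atf4 core. Capitals mark E-boxes in Il15, Metrnl and Gdf15 and the Atf4 core in Fgf21.
Il15, chr19:42544456-42544705, + strand: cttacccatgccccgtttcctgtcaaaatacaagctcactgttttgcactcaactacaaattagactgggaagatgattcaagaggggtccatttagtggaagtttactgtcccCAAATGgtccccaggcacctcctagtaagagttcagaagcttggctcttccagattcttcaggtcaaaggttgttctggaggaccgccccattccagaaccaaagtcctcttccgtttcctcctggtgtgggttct
Metrnl, chr10:107461898-107462147, + strand: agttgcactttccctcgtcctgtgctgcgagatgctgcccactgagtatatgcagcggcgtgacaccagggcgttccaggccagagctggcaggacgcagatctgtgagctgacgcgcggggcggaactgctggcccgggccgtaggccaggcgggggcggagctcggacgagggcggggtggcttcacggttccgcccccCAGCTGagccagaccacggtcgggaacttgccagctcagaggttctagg
Gdf15, second listed start, chr16:18839015-18839264, + strand: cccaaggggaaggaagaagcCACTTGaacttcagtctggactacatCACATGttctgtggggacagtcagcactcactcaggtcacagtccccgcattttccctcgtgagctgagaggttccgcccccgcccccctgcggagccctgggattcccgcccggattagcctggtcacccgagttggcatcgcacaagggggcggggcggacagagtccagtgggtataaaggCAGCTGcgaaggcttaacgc
Fgf21, chr1:105221486-105221545, - strand: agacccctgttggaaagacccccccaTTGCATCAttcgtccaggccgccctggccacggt

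Il15 held 1 E-box, CAAATG, 136 bases before its start, and Metrnl held CAGCTG 49 bases before. Gdf15 had 3 E-boxes before its second start, nearest CAGCTG at 20 bases, and 0 before its first. The Fgf21 core read TTGCATCA on the gene's strand, the reverse complement form, 143 bases before the start, and the whole Fgf21 window held E-boxes at 92 and 54 bases too. Il6 held 1 E-box, and neither Dkk1 nor Fndc5 held any. None of the 7 genes had a FoxO site in these windows, which says only that these letters are not there.

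Receptors, partners and related secreted factors were read from 12 lists of 114 genes, of which 101 had a probe. In denervated over normal soleus 89 were measured, with 12 at least 2-fold higher (13.5%, against 8.73% of all genes), 17 at least 2-fold lower (19.1%, against 13.4%) and a median log2 fold of 0.16, against 0.02 over all genes. In plantaris over soleus 91 were measured, with 4 higher (4.40%, against 5.71% of all genes), 8 lower (8.79%, against 6.11%) and a median of -0.05, against 0.02. The lists were chosen with results of these arrays known, so nothing is read from these shares or from the list counts that follow. On the authors' deposited values the split in denervated over normal soleus was 17 higher and 11 lower.

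**Figure D4:**
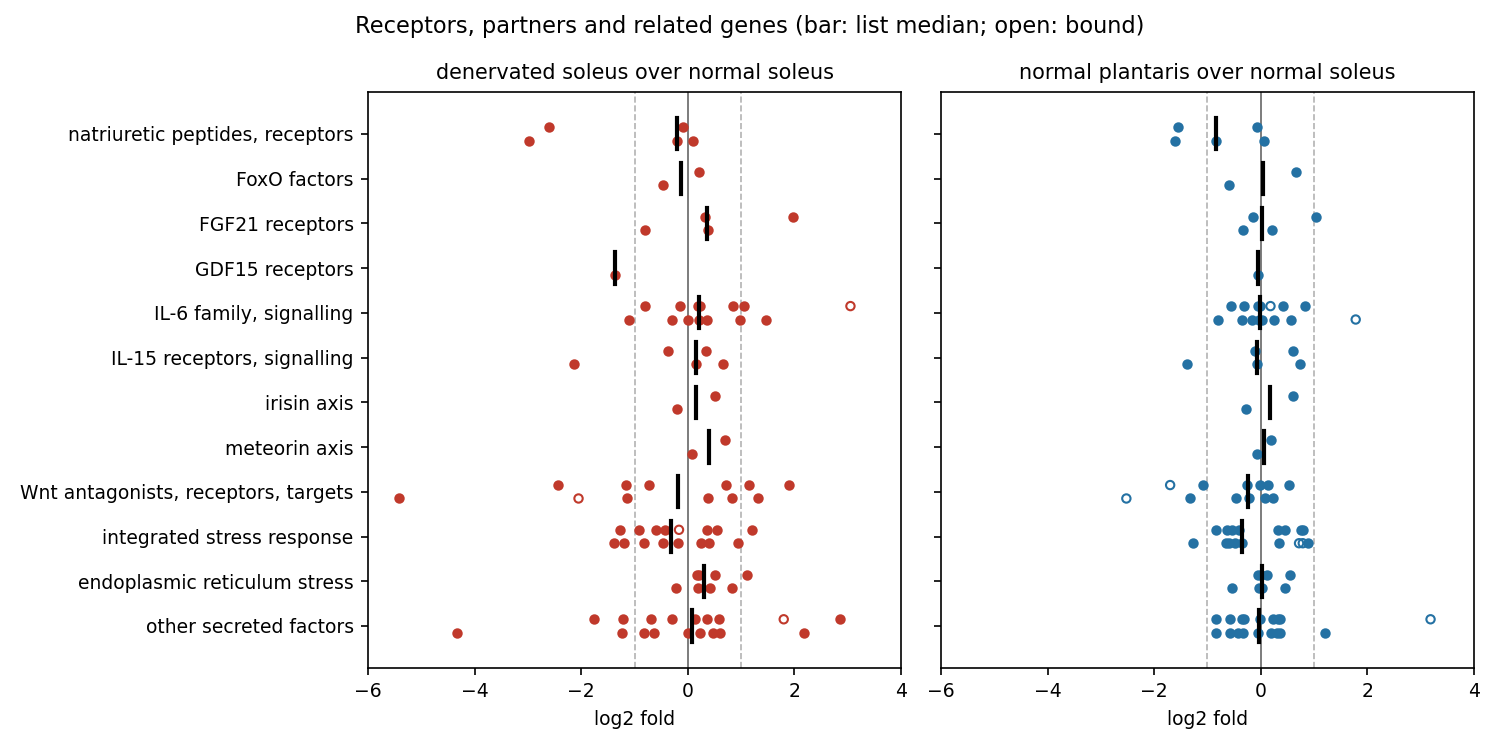
Log2 folds of the measured genes of 12 lists in denervated over normal soleus (left, red) and normal plantaris over normal soleus (right, blue). Black bars are list medians, dashed lines mark 2-fold and open points are bounds. Ret alone stands for its list, at -1.37 on the left, and the natriuretic list has -0.83 on the right, while all other list medians lie between -0.34 and 0.40.

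On the musclin axis, 5 of 8 natriuretic genes were measured. In denervated over normal soleus 0 were higher and 2 were lower at 2-fold, Nppc, the C-type peptide, with a log2 fold of -2.62 ± 0.26 and Prkg1, the kinase that its second messenger cyclic GMP activates, with -2.98 ± 0.41. Npr3, the clearance receptor that musclin binds, had 0.10 ± 0.21. Npr3 was lower in plantaris over soleus, with -1.62 ± 0.24, as was Prkg1 with -1.55 ± 0.27. The signalling receptors Npr1 and Npr2 had -0.10 and -0.21 in denervated over normal soleus. Of the FoxO factors, known in mice as regulators of Ostn, Foxo3 had 0.21 ± 0.24 and Foxo4 -0.47 ± 0.20 there, and Foxo1 had no matched probe.

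Among FGF21 receptors, Fgfr4 was higher in denervated soleus, at 3.92-fold and a log2 fold of 1.97 ± 0.34. Fgfr1, the main partner of the coreceptor Klb, had 0.38 ± 0.20, and Klb had no matched probe. The 3 measured of 4 probes of Fgfr2 differed in sign there, at 0.51, -0.80 and -0.81. Fgfr3 was the 1 of 4 above 2-fold in plantaris over soleus, with 1.04 ± 0.40. Ret, the signalling partner of the GDF15 receptor, had -1.37 ± 0.36 in denervated over normal soleus, and Gfral, that receptor, was not well above background on any array.

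Of the interleukin 6 family, 14 of 15 genes were measured in denervated over normal soleus, with 3 higher, 1 lower and a median of 0.22. Il6r, the receptor, had 1.47 ± 0.22, and Il6st, the shared signalling chain gp130, had 1.05 ± 0.20. Cntfr, the ciliary neurotrophic factor receptor, was at least 8.30-fold higher, a log2 bound of 3.05 with a scanner error of 1.46. Osm, oncostatin M, had -1.104 ± 0.38. Socs3, a feedback inhibitor induced by Stat3, had 0.19 ± 0.23. In plantaris over soleus Il6r had -0.01 and Il6st -0.32. The 1 gene past 2-fold there was Cntfr, at least 3.44-fold higher, a log2 bound of 1.78 with a scanner error of 1.47.

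Of 5 measured genes of the interleukin 15 list, Il2rg, the common gamma chain, was 4.39-fold lower in denervated soleus, with a log2 fold of -2.13 ± 0.20. Il2rb, the chain shared with interleukin 2, had 0.34 ± 0.25. Among lymphocyte markers, Cd3d, of the T cell receptor complex, had -0.99 ± 0.21 in denervated over normal soleus beside Il2rg, Cd3g 0.04 ± 0.29, Cd4 0.21 ± 0.31, Nkg7 0.60 ± 0.21 and Ptprc 0.61 ± 0.21, while Cd3e and Cd8a were not well above background on any array. Jak3, the kinase bound to the gamma chain, had -1.39 ± 0.21 in plantaris over soleus, where Cd3d had 0.29 ± 0.21, Cd3g -0.71 ± 0.37, Cd4 0.08 ± 0.33, Nkg7 -0.48 ± 0.21 and Ptprc -0.89 ± 0.22. The part of lymphocytes in these values was not tested.

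Of the irisin list 2 of 5 genes were measured, and of the meteorin list 2 of 2, and none of these 4 was 2-fold apart in either comparison. Bdnf, a neurotrophin, was not well above background, and Itgav and Fndc4 had no matched probe. Ppargc1a, the coactivator that drives Fndc5 in mouse muscle, had -0.19 ± 0.21 in denervated over normal soleus and 0.61 ± 0.21 in plantaris over soleus. Itgb5, of an irisin receptor, had 0.50 ± 0.20 and -0.27 ± 0.20. Kit, a receptor named for meteorin-like in mice, had 0.71 ± 0.36 and 0.20 ± 0.40, and Metrn, the paralogue of Metrnl, had 0.08 ± 0.22 and -0.06 ± 0.23.

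Around Dkk1, 12 of 20 Wnt genes were measured, with 3 higher, 5 lower and a median of -0.18 in denervated over normal soleus. Wnt16, a Wnt ligand, had the largest log2 fold of these, -5.42 ± 0.89, which is 42.7-fold lower. Its probe was the faintest well above background in denervated soleus, at a signal of 10.7, so the size of this fold is uncertain. Dkkl1, a relative of Dkk1, had -2.44 ± 0.22. Lef1, a Wnt-responsive factor, was at least 4.15-fold lower, a log2 bound of -2.05 with a scanner error of 1.21. Axin2, listed as a Wnt target, went the other way, with 0.83 ± 0.29. Sfrp2, Sfrp4 and Frzb, which bind Wnt proteins, had 1.90, 1.15 and 1.32. Sost, a further Wnt antagonist, had -1.15 ± 0.22. The 2 probes of the Dkk1 receptor Lrp6 differed in sign, at -1.15 and 0.78, and Lrp5 had -0.72 ± 0.20.

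In plantaris over soleus 0 of these 12 Wnt genes were higher and 4 were lower. Kremen1, a coreceptor of Dkk1, was 5.74-fold lower by its own dim plantaris signal, with a log2 scanner error of 0.43. Lef1 was at least 3.25-fold lower, with a log2 scanner error of 0.86. Sfrp2 had -1.32 ± 0.26 and Sost -1.07 ± 0.23.

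The integrated stress response, which precedes Fgf21 and Gdf15, had 16 of 17 genes measured in denervated over normal soleus, with 1 higher, 3 lower and a median of -0.31. Atf4 had -1.28 ± 0.20, Atf3, its target, had -1.21 ± 0.20, and Vldlr, a lipoprotein receptor, had -1.38 ± 0.22. Phgdh, of serine synthesis, had 1.21 ± 0.20 and Ddit3, the factor CHOP, had -0.43 ± 0.20. Genes under 2-fold went both ways in this comparison. Psat1, Trib3 and Asns had 0.93, 0.54 and 0.40, and Mthfd2, Shmt2 and Ppp1r15a had -0.92, -0.82 and -0.60. In plantaris over soleus Mthfd2, of mitochondrial folate metabolism, was the 1 of 17 past 2-fold. It had -1.28 ± 0.23 on its brightest probe and -0.34 on another of its 3 probes. Of 8 genes of endoplasmic reticulum stress, Pdia4, a disulfide isomerase, had 1.12 ± 0.22 in denervated over normal soleus, and 0 were 2-fold apart in plantaris over soleus.

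Of 18 other secreted factors measured, 3 were higher and 4 lower in denervated over normal soleus. Fst, follistatin, which binds myostatin and activins, was 7.26-fold higher, and Apln, apelin, 4.54-fold higher. Mstn, myostatin, an inhibitor of muscle growth, was at least 3.48-fold higher in denervated soleus and at least 9.12-fold higher in normal plantaris. Both are bounds against a normal soleus array where it was not well above background, with log2 scanner errors of 1.47 and 1.46. Vegfb, a vascular growth factor, was 20.3-fold lower in denervated soleus, with a log2 fold of -4.34 ± 0.21. The 4 probes of Vegfa, a growth factor for blood vessels, gave -2.06 to -1.62. Nampt, of nicotinamide metabolism, had -1.24 ± 0.21. The 2 probes of Cxcl12, a chemokine, differed in sign, at -1.21 and 0.66. Mdk, the growth factor midkine, had 1.20 ± 0.21 in plantaris over soleus.

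On the scale used for fat cells, endothelial markers summed to 7.05 in denervated soleus, 10.5 in normal plantaris and 13.0 in normal soleus. Of these, 3 of 6 were at least 2-fold lower in denervated than in normal soleus (Cdh5, Kdr and Flt1), where 13.4% of all genes were. Fibroblast and tendon markers summed to 244.4 in denervated soleus, 204.2 in normal plantaris and 105.3 in normal soleus. Of 8 measured, 2 were at least 2-fold higher in denervated over normal soleus (Fmod and Comp), where 8.73% of all genes were. The log2 folds of the 8 ran from 0.53 to 2.77. In plantaris over soleus 2 were at least 2-fold higher (Col1a1 and Fmod), where 5.71% of all genes were. The 8 ranged from -0.43 to 1.59 there, with a median of 0.35. The part of these cells in the vascular and Wnt values was not tested.

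Normexp, a model of background that adds an offset, ended several of these calls or moved them by over 1.5 times. In denervated over normal soleus Ostn had a log2 fold of -1.03 and Gdf15 -0.03 under it, and Gdf15 had -0.38 in plantaris over soleus. Fgfr4 (0.80), Ret (-0.77), Cntfr (0.96), Osm (-0.70), Frzb (0.46), Sost (-0.89), Pdia4 (0.74) and Mstn (0.35) came under 2-fold in denervated over normal soleus. Wnt16 (-2.82), Lef1 (-1.08), Prkg1 (-1.54) and Nppc (-1.67) shrank there but stayed past it. All 8 lower calls of listed genes in plantaris over soleus came under 2-fold, as did the higher calls of Cntfr (0.74), Fgfr3 (0.55) and Mdk, while Mstn stayed at 1.29.

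On the authors' deposited values Metrnl in denervated over normal soleus reached 1.08, while all genes shifted by 0.26. Osm (-0.86), Sost (-0.91), Lrp6 (-0.91), Atf3 (-0.96), Cxcl12 (-0.97) and Nampt fell short of 2-fold on them, as did Fgfr3 (0.93) in plantaris, and Atf4 (-0.98) after quantile normalization. The split of all genes in denervated over normal soleus was 1568 higher and 1107 lower on those values (58.6% of calls higher), against 988 higher and 1518 lower (39.4%) after centring.

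**Figure D5:**
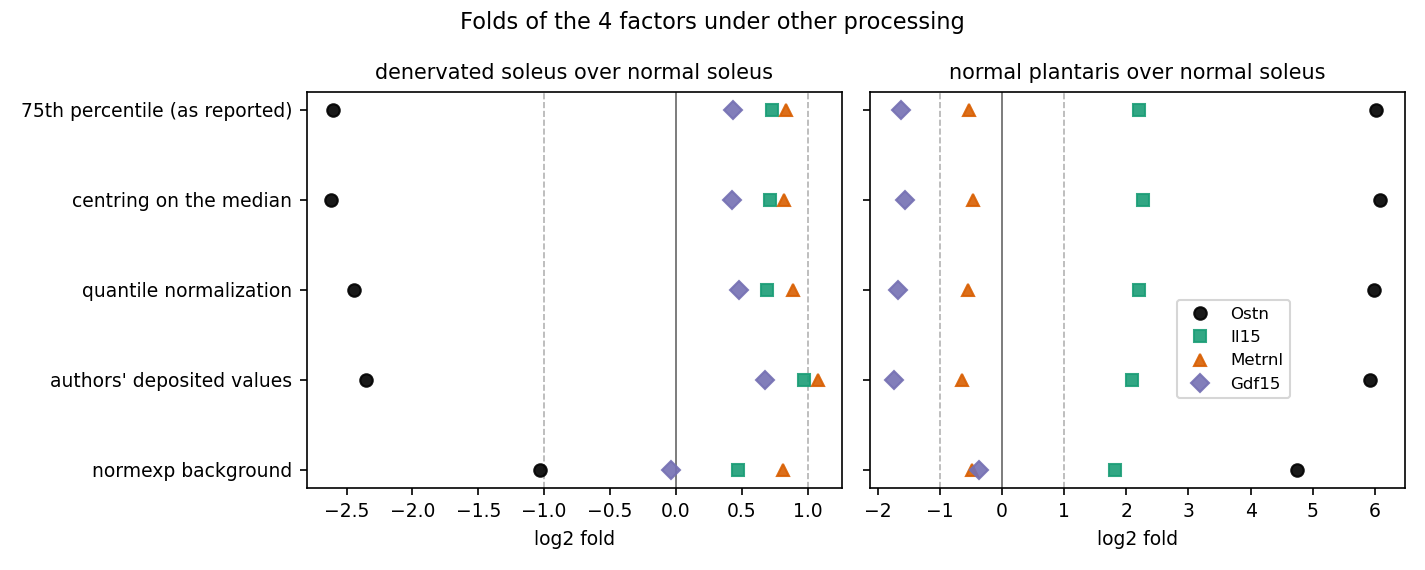
Log2 folds of Ostn, Il15, Metrnl and Gdf15 after 75th percentile centring and under 4 other settings, in denervated over normal soleus (left) and normal plantaris over normal soleus (right); the 2 panels have different scales. Dashed lines mark 2-fold. The normexp row has Ostn nearest to 0 in both panels, at -1.03 and 4.75.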

How the data were processed

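The 3 one-colour arrays were quantified with Agilent Feature Extraction 10.10.1.1, per the submitters' processing notes. Per the file headers, the deposited processed signal is a linear intensity from which background was subtracted, and arrays were not scaled to each other. Other columns of the deposited files, per the file headers, are flags of 0 or 1 and signal errors. The value table that the authors deposited holds intensity too, equal to the processed signal times 1.41 (denervated soleus), 1.80 (normal plantaris) and 1.60 (normal soleus), with column medians of 243.3, 180.5 and 203.7. The origin of those factors is not stated.

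Probes were named through RefSeq accessions (18005 of 30367 matched, 15168 genes). The log2 processed signal was computed here from the deposited intensity, centred on the 75th percentile of 58717 non-control spots, and averaged over repeat spots. Outlier spots (467 to 569 per array) were left out, and 0 were saturated. A probe needed 50% of its spots well above background, which 64.2% to 67.0% of probes had. A gene took its brightest probe and entered a comparison if well above background on 1 of its arrays. Signal over background and the number of arrays limit the precision. Scripts ran in Python 3.11.15 with pandas 2.3.3 and numpy 2.4.6, and normexp in limma 3.58.1 under R 4.3.3, and fold computation was tested on simulated data.

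The genes and lists were chosen with earlier results of these data known. Named were all 8 factors, set receptors and regulators, the 3 largest folds of each list in each comparison among genes past 2-fold, and the 5 genes nearest to the Ostn pattern. All other list genes past 2-fold, and Fgfr2, whose probes disagree, were named after their values were seen. So were Axin2, Psat1, Trib3, Asns, Mthfd2, Shmt2 and Ppp1r15a among genes under 2-fold in denervated over normal soleus. Alternatives were normexp, quantile normalization, median centring, the authors' values, other filters on dim probes, the mean over probes and the median of repeat spots. Normexp was planned on mean spot signals, but used median spot signals. No test was run and probes without a symbol were left out.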

Additional observations from a re-analysis of the deposited data

How the results depend on the processing

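The Ostn folds kept their sign and stayed past 2-fold under normexp, quantile normalization, median centring, the authors' values and the median of repeat spots. They were not read under the other filters on dim probes or the mean over probes. Normexp with offset 50, run on median spot signals, changed most. For denervated over normal soleus it gave 1368 genes at least 2-fold apart (2506 as reported), 367 higher and 1001 lower, 7 listed genes higher (12 as reported), and log2 folds of -1.03 for Ostn, -0.033 for Gdf15 and 0.47 for Il15. For plantaris over soleus it gave 591 genes apart (1302 as reported), 309 higher and 282 lower, 1 listed gene higher (4 as reported) and 0 lower (8), and 4.75 for Ostn, -0.38 for Gdf15 and 1.82 for Il15. Normexp draws dim signals toward each other through its offset.

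On the authors' deposited values, 1568 genes were higher in denervated soleus with 17 listed genes higher (12 as reported) and 11 lower (17 as reported), and Il15 and Metrnl had 0.97 and 1.08. Relative to the all-gene shift of 0.26 these were 0.71 and 0.82. Genes well above background on both arrays left 433 lower in plantaris (673 as reported) and 2 listed genes higher, since fewer genes were compared. Quantile normalization turned Cxcl12 in denervated over normal soleus to 0.79, because its other probe became the brightest. Of 192 list medians set against the reported ones, 24 changed sign, over 16 of 24 medians, so a median's sign near 0 carries little. Of 205 values of listed genes past 2-fold, 28 came under it. Each measured factor has 1 probe, so the planned reading of other probes gave no value. No paired analysis was possible because each group has 1 array.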
